A study of Homo sapiens with 4 samples.

Results

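Panc-1 cells that carried CD166 on their surface (CD166+) were compared with Panc-1 cells depleted of it (CD166-), with 1 bead array for each population. Every gene named by the array annotation and detected on either Panc-1 array was taken, which gave 10532 of 20044 named genes. Detected means a detection p under 0.01 against the negative controls of the same array. Of these genes, 9632 were detected on both Panc-1 arrays, 556 on the CD166+ array alone and 344 on the CD166- array alone. The 42 genes just inside the limit, whose lower detection p on the arrays was 0.00909, had median signals of 35.6 (CD166+) and 39.2 (CD166-). The 28 genes just outside it, at 0.0104, had 37.2 and 35.4.

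CD166, the product of ALCAM, is an adhesion molecule of the immunoglobulin superfamily that binds other CD166 molecules on neighbouring cells and CD6 on T cells. It is linked to the actin cytoskeleton, is shed from the surface by proteases, and has been used as a surface marker to sort subpopulations of tumor cells. Panc-1 is an established human pancreatic cancer cell line whose cells differ in their CD166 level, so that both fractions can be taken from the same culture.

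The study profiled CD166+ and CD166- cells of Panc-1 and of a further pancreatic cancer cell line, SW1990, to ask which genes differ with surface CD166. Cells were labelled with a PE-conjugated antibody to ALCAM and anti-PE magnetic beads. Labelled cells of each line form its CD166+ population, and its CD166- population is what remained after depletion of labelled cells. No engineered genetic change and no drug was used to separate the populations of a line. Whether their cells differ genetically was not tested, and none of the sources used here says that they were prepared more than once.

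The Panc-1 arrays were alike in brightness, with mean intensities of 338 for CD166+ and 339 for CD166- cells and 16716 and 16222 detected probes. All levels below are normalized signals on a linear scale, and a fold is the ratio of the signals of 1 gene on the Panc-1 arrays. An undetected side was set to the lowest signal among detected probes of its array, 37.4 for CD166+ and 39.0 for CD166- cells, or to the probe's own signal if higher, and such a fold is a lower bound, written as at least N-fold. With 1 array a side no difference has a replicate check and no test was made. Different probes of 1 gene had a pooled SD of 0.226 in their log2 folds over 2608 genes with several detected probes, which covers error between probes only. A lower signal in a bulk population can come from fewer cells that express a gene or from less RNA per cell, and the arrays cannot tell these apart.

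The labelled cell type fitted in part. The keratin genes KRT8, KRT18 and KRT19 and the epithelial surface gene EPCAM were detected on both arrays, while CDH1, the gene of E-cadherin, was on neither, with measured signals of 23.4 (CD166+) and 25.4 (CD166-). VIM, the intermediate filament of mesenchymal cells, was among the bright genes of both, at 17833 in CD166+ and 19761 in CD166- cells. Of 5 leukocyte markers 1 was detected, CD14, at 52.9 and 45.9, while PTPRC, the pan-leukocyte marker CD45, was not. None of 4 endothelial, 3 endocrine or 3 acinar markers was detected on either array. Of 6 markers of fibroblasts and stellate cells, 2 were detected, COL1A1 at 428 in CD166+ and 346 in CD166- cells and ACTA2 at 57.7 and 66.8, and the defining marker PDGFRB was not.

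Most genes had close to the same signal in both fractions. Of the genes detected on both arrays, 70.9% differed by less than 1.2-fold and 95.1% by less than 1.5-fold, and the median log2 fold of CD166+ over CD166- over all 10532 genes was -0.0079 with quartiles of -0.16 and 0.15. Over 2-fold higher in CD166+ cells were 63 genes (0.598%) and over 2-fold higher in CD166- cells 43 genes (0.408%), together 106 (1.01%). In SW1990 the same rule gave 13.6% and 14.2%. At over 3-fold, 25 genes (0.237%) were higher in CD166+ and 3 genes (0.0285%), IFIT1, SPARC and DOK1, in CD166- cells, together 0.266%. Of the 25 genes 10 were still past 3-fold, and of the 63 genes 38 past 2-fold, after the subtraction of SW1990 signal described below. At over 1.5-fold, 268 genes (2.54%) lay toward CD166+ and 276 (2.62%) toward CD166- cells, together 5.17%. Counts in the gene lists below are to be read beside these shares, at which a short list holds few such genes or none. Of the 63 genes 23 were undetected in CD166- cells, whereas of the 43 genes 1, DOK1, was undetected in CD166+ cells. DOK1, an adaptor of tyrosine kinase signaling, had measured signals of 27.1 (CD166+) and 154 (CD166-), at least 4.11-fold. Further probes were detected for 24 of the 106 called genes. Of these 26 probes, 25 had the direction of the main probe and 7 were over 2-fold apart themselves, and the exception was 1 probe of CALD1.

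**Figure D1:**
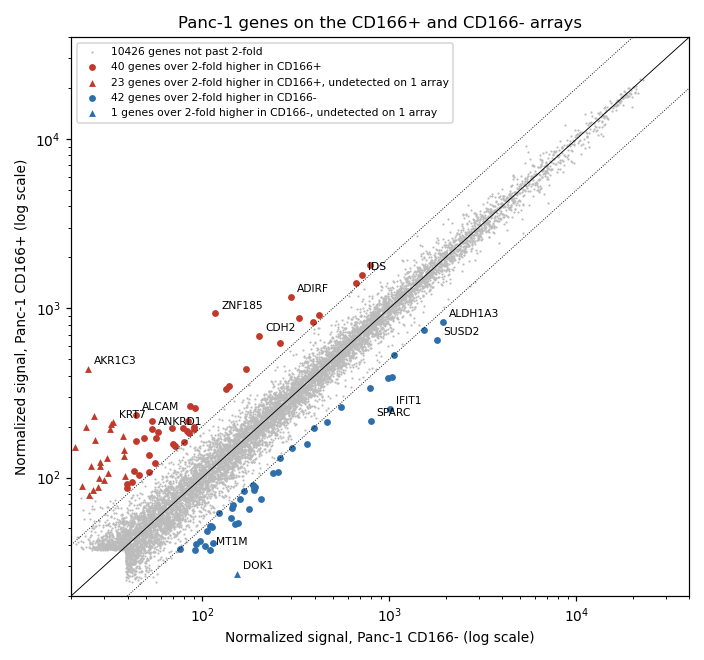
Normalized signal of each of the 10532 genes in Panc-1 CD166- cells (x axis, log scale) and CD166+ cells (y axis, log scale), 1 array each. Red and blue points are the 63 and 43 genes over 2-fold apart, triangles those undetected on the dimmer array, the solid line marks equal signals and the dotted lines 2-fold differences. The cloud is narrow, and the points outside it are mostly dim genes.

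The gene of the sorted protein had the direction of its label. ALCAM had signals of 235 (CD166+) and 44.3 (CD166-), a 5.29-fold difference. Its level in CD166- cells was detected but lay close to the 39.0 of the dimmest detected probes. ALCAM was the only one of 17 detected adhesion molecules of the immunoglobulin superfamily that was over 2-fold higher in CD166+ cells. None was over 2-fold higher in CD166- cells, where ICAM1, a ligand of leukocyte integrins, had the highest signal relative to CD166+ cells, at 164 in CD166+ and 279 in CD166- cells. The median log2 fold of these 17 genes was -0.015. ALCAM itself was used by the sort, so its fold is a check of the labels.

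The fold highest among genes detected on both arrays was that of ZNF185, which encodes a LIM domain protein of the actin cytoskeleton. Its signals were 936 in CD166+ and 117 in CD166- cells, 7.98-fold. Of 32 detected LIM domain genes it was 1 of 2 over 2-fold higher in CD166+ cells, with the adaptor gene TRIP6, at 109 in CD166+ and 43.1 in CD166- cells, and the median log2 fold of the list was -0.039. ANKRD1, an ankyrin repeat protein and a target of the coactivator YAP, had 192 in CD166+ and 53.9 in CD166- cells, 3.57-fold. Of 25 detected YAP and TEAD targets, ANKRD1 was the only one past 2-fold or 1.5-fold in either direction, and their median log2 fold was 0.056. Over all genes 1.01% were past 2-fold and 5.17% past 1.5-fold, so 1 of 25 past 1.5-fold is near the share of all genes.

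Among genes higher in CD166+ cells were the cadherins CDH2 and DSG2 and some genes of the membrane and cytoskeleton. CDH2, the gene of N-cadherin, had signals of 690.5 (CD166+) and 201 (CD166-), 3.43-fold. DSG2, a desmosomal cadherin, had 265 and 85.9 in the same order, 3.08-fold, and its further probe had 55.7 and 30.3. CNTNAP1, a contactin-associated membrane protein, had 346.5 and 140, 2.48-fold. Each of these genes was bright enough to be detected in both fractions. PLEK2, a pleckstrin homology domain protein of the cytoskeleton, had 196 in CD166+ and 79.2 in CD166- cells, 2.48-fold. MYPN, a protein of the sarcomere in muscle, had 153 and 71.6, 2.13-fold, and its further probe gave 138 and 53.6. Of 15 detected genes of the epithelial and junction list, DSG2 was the only one over 2-fold apart and the median log2 fold was 0.075, while that of 38 detected actin cytoskeleton genes was -0.047. EPCAM had 293 in CD166+ and 178 in CD166- cells, 1.65-fold.

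Matrix genes were found on both sides. COL13A1, a transmembrane collagen, had 185 in CD166+ and 58.4 in CD166- cells, 3.17-fold. HAS3, a hyaluronan synthase, had 911 and 423, 2.16-fold, but 47.2 and 32.4 on its further probe. CHST15, a sulfotransferase of chondroitin sulfate, had 438 and 171, 2.56-fold. SRPX2, a secreted sushi repeat protein, was detected in CD166+ cells alone, with measured signals of 176 and 37.8, at least 4.52-fold. COL22A1, a collagen of tissue junctions, was likewise detected in CD166+ cells alone, at 88.5 against 22.8, at least 2.27-fold. Past 1.5-fold (2.54% of all genes in this direction) were also the laminin chain LAMB1, at 451 in CD166+ and 253 in CD166- cells, the metalloproteinase inhibitor TIMP2, at 712 and 395.5, and the integrin chains ITGA2, at 2344 and 1492, and ITGA3, at 4085 and 2635. None of 12 detected laminin and basement membrane genes and none of 12 detected integrins was past 1.5-fold in the other direction. As 2.62% of all genes were, none of 12 is near that share. The medians of these lists were 0.10 and 0.025 on the log2 scale.

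Among signaling genes and channels higher in CD166+ cells, GNA15, a G protein alpha subunit of the Gq class, had 259 in CD166+ and 91.3 in CD166- cells, 2.84-fold. CAMK2N1, an inhibitor of the calmodulin-dependent kinase CaMKII, had 871 and 330.1, 2.64-fold. MAPKAPK3, a kinase downstream of p38, had 624 and 260, 2.40-fold. These 3 genes were expressed in both fractions. GABRB1, a GABA receptor subunit, was detected in CD166+ cells alone, at 107 against 31.5, at least 2.74-fold, whereas GABRE, another subunit, was detected in both at 86.7 and 39.5, 2.20-fold. ASIC2, an acid-sensing ion channel, had 193 in CD166+ and 90.4 in CD166- cells, 2.13-fold.

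A further set encodes enzymes and regulators with other roles. ADIRF, an adipogenic factor, had 1167 in CD166+ and 298 in CD166- cells, 3.92-fold. CYGB, the globin cytoglobin, had 197 and 68.7, 2.87-fold. FAR2, a fatty acyl-CoA reductase, was detected in CD166+ cells alone, at 134 against 38.3, at least 3.44-fold. The brightest of the set were OCIAD2, IDS and FOXQ1. OCIAD2, a mitochondrial protein, had 1793 in CD166+ and 793 in CD166- cells, 2.26-fold, and its further probe gave 907 and 399.5. IDS, the lysosomal iduronate sulfatase, had 1572 and 711, 2.21-fold, and of its further probes 1 gave 478 and 196 and the other 45.6 and 28.9. FOXQ1, a forkhead transcription factor, had 1414 and 666.5, 2.12-fold. KDSR, an enzyme of sphingolipid synthesis, SLFN11, a nuclear protein of the response to DNA damage, and BAK1, which promotes apoptosis, were between 2.20-fold and 2.56-fold higher in CD166+ cells. The further probe of KDSR gave 161 in CD166+ and 103 in CD166- cells, and that of SLFN11 54.5 and 40.1, both under 2-fold. CES1, a carboxylesterase of drug and lipid metabolism, had 834 in CD166+ and 390 in CD166- cells, 2.14-fold, but 68.0 and 61.0 on its further probe. The transcription factor genes SOX21, at 198 and 90.6, and PRDM8, at 183 and 84.8, were 2.18-fold and 2.15-fold higher.

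**Figure D2:**
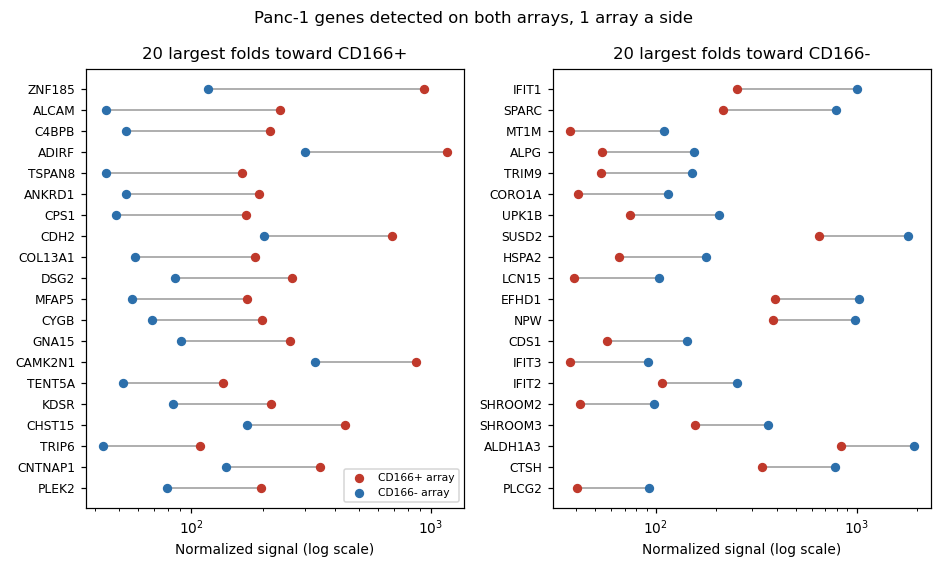
Normalized signals (x axis, log scale) of the 20 genes with the highest folds toward Panc-1 CD166+ cells (left) and CD166- cells (right) among genes detected on both arrays. Each line joins the CD166+ (red) and CD166- (blue) array of 1 gene. ZNF185 spans 117 to 936 and IFIT1 255 to 1004.

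The remaining genes higher in Panc-1 CD166+ cells are set beside their signals on the SW1990 CD166+ array. Over 2000 in SW1990 CD166+ cells after background correction and undetected in Panc-1 CD166- cells were 20 genes. All 20 were detected on the Panc-1 CD166+ array, where their median share of the SW1990 CD166+ signal was 3.15% (range 1.25% to 7.98%, quartiles 2.61% and 3.92%). No gene over 2000 in SW1990 CD166+ cells was missing from the Panc-1 CD166+ array. The reverse was not seen for SW1990 CD166- cells, where 5 genes were over 2000 and undetected in Panc-1 CD166+ cells. The same 5 genes were those undetected in Panc-1 CD166- cells, so 0 were detected on either Panc-1 array. Their medians were 0.395% of the SW1990 CD166- signal in Panc-1 CD166- and 0.307% in Panc-1 CD166+ cells. A rule without any condition on Panc-1, of genes over 2000 in SW1990 CD166+ and undetected in SW1990 CD166- cells, took 21 genes, 13 of them among the 20. Their median was 3.32% on the Panc-1 CD166+ and 0.567% on the Panc-1 CD166- array, and 17 of 21 were higher on the former.

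**Figure D3:**
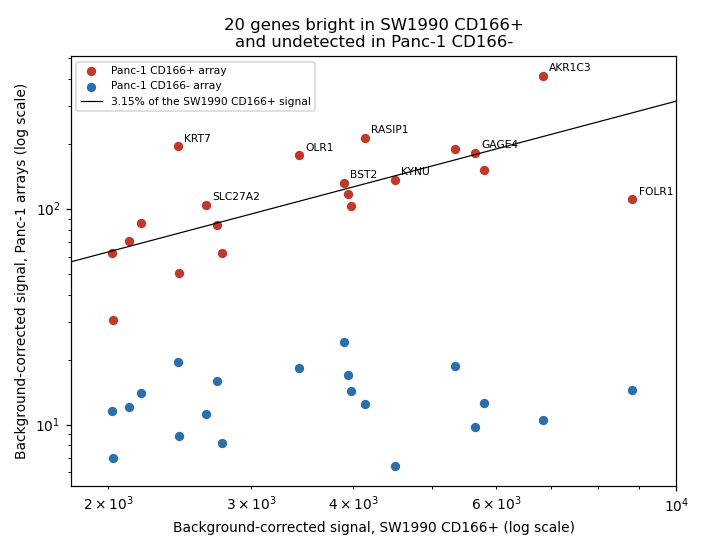
Background-corrected signals of the 20 genes that were bright in SW1990 CD166+ cells (x axis, log scale) but not detected in Panc-1 CD166- cells. Red points are their signals on the Panc-1 CD166+ array and blue points on the Panc-1 CD166- array (y axis, log scale). The line stands at the median of 3.15% of the SW1990 CD166+ signal. The red points lie at 1.25% to 7.98% of the SW1990 CD166+ signal. All lie above the blue points, which the rule required to be undetected.

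In 29 of the 63 genes the difference between the Panc-1 arrays was at most 10% of the SW1990 CD166+ signal, a limit set after the values were seen. The differences of these 29 genes were 1.09% to 9.74% of that signal, with a median of 3.05%, and their median normalized signal in SW1990 CD166+ cells was 2773, against 107 for the other 34. The split uses that signal, so this difference and the SW1990 calls of the 29 genes describe the split and support nothing. Of the 29 genes 19 were undetected in Panc-1 CD166- cells, against 4 of the 34. In SW1990 itself 23 of the 29 were over 2-fold higher in CD166+ cells (13.6% of all genes there). Of the 34, 15 were over 2-fold higher in SW1990 CD166+ cells and 7 in SW1990 CD166- cells.

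AKR1C3, an aldo-keto reductase of steroid and prostaglandin metabolism, led the 29 genes and all 63. Its measured signals were 441 in Panc-1 CD166+ and 24.6 in Panc-1 CD166- cells, at least 11.3-fold, beside 5283 in SW1990 CD166+ cells. Its relative AKR1C4 had 87.4 and 27.9, at least 2.24-fold, and the probes of these similar genes may not separate them. KRT7, a keratin of ductal epithelia, had 212 and 33.5 in Panc-1, at least 5.45-fold, beside 1991 in SW1990 CD166+ cells. The other 7 detected keratins were not past 2-fold, and KRT8 was brighter in CD166- cells, at 4176 in CD166+ and 7082 in CD166- cells. RASIP1, an effector of Ras-like GTPases in endothelium, had 232 and 26.6, at least 5.95-fold, and OLR1, a receptor of oxidized lipoprotein, had 194 and 32.3, at least 4.98-fold. Neither gene was detected in CD166- cells. KYNU, an enzyme of tryptophan breakdown, had 151 in CD166+ and 20.9 in CD166- cells, at least 3.87-fold, and 47.4 and 25.4 on its further probe. The folate receptor FOLR1, at 124 and 28.6, the fatty acid transporter SLC27A2, at 118 and 25.4, the glutathione transferase MGST1, at 101 and 38.9, and the serpin SERPINB5, at 97.1 and 30.0, were at least 2.49-fold to 3.19-fold higher. CDKN2A, the gene of the cell cycle inhibitor p16, had 83.9 and 26.2, at least 2.15-fold, and was likewise undetected in CD166- cells. Its further probe gave 41.0 and 22.3.

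GAGE genes, cancer-testis antigens of the X chromosome, were all of the cancer-testis genes past 2-fold. Of 12 detected cancer-testis genes 10 were detected in CD166+ cells alone, the 5 called GAGE genes among them, so the list's count and median follow from the side that admitted them. PRAME, the only one detected on both arrays, had 918 in CD166+ and 785 in CD166- cells. GAGE12G had 207 in Panc-1 CD166+ and 32.8 in Panc-1 CD166- cells, at least 5.30-fold, beside 4230 in SW1990 CD166+ cells. GAGE4, GAGE12C and GAGE12J were at least 3.34-fold to 5.11-fold higher in CD166+ cells, and GAGE12H had 117 and 28.4. The copies of this family are near-identical, so 1 probe may read several of them. All 5 were undetected in Panc-1 CD166- cells and are among the 29 genes. With 3.15% of the SW1990 CD166+ signal taken off the Panc-1 CD166+ array, all 5 were below the lowest detected signal on both arrays, and each of these calls was lost. These 5 are among the 20 genes that gave the 3.15%, so this loss follows in part from how the share was set.

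Several surface and secreted proteins stood in the same 29 genes. TSPAN8, a tetraspanin, had 164 in Panc-1 CD166+ and 44.2 in Panc-1 CD166- cells, 3.71-fold, beside 2995 in SW1990 CD166+ cells. BST2, the antiviral membrane protein tetherin, had 146 and 38.0, at least 3.75-fold, beside 3144. C4BPB, a chain of the complement regulator C4BP, had 214 and 53.7, 3.99-fold, beside 4054. After the same subtraction TSPAN8 was 1.08-fold higher in CD166+ cells, C4BPB had a log2 fold of -0.027, and BST2 fell below the lowest detected signal in both fractions. The urea cycle enzyme CPS1, at 170 and 48.9, the matrix protein MFAP5, at 171 and 56.9, and the calcium-binding protein S100P, at 91.7 and 39.7, were no longer past 2-fold either, nor was TRIP6. In all 38 of the 63 genes stayed over 2-fold after this subtraction, 6 changed sign and 12 were then below the lowest detected signal on both arrays. The subtracted signal was set no lower than 37.4, the lowest detected signal, so a changed sign can reflect that limit. All 12 are among the 20 genes that gave the share, as are AKR1C3, KRT7, RASIP1 and OLR1. Whether these calls were lost or kept thus depends on a value drawn from the same genes. Among the 38 that stayed over 2-fold were ZNF185 (8.22-fold), ALCAM (5.27-fold), CDH2 (3.51-fold), ANKRD1 (3.71-fold) and, of the 29 genes, AKR1C3 (at least 5.71-fold), KRT7 (at least 3.52-fold), RASIP1 (at least 2.56-fold) and OLR1 (at least 2.18-fold). With the upper quartile of the share, 3.92%, taken off, RASIP1 was at 1.75-fold and OLR1 at 1.5-fold and both calls were lost, while AKR1C3 was still at least 4.28-fold and KRT7 at least 3.02-fold higher. Whether RNA or cells of the SW1990 CD166+ sample were carried over onto the Panc-1 CD166+ array was not tested, and it bears on the folds of all 29 genes.

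Of the genes higher in CD166- cells, IFIT1, whose product binds viral RNA and which is induced by interferon, had the highest fold of those detected on both arrays. Its signals were 255 in CD166+ and 1004 in CD166- cells, 3.94-fold, and a dim further probe gave 30.0 and 43.0. IFIT2, a member of the same family, had 108 and 254, 2.36-fold. IFIT3, another member, had 37.4 and 91.5, 2.44-fold, and its further probe 44.1 and 67.1. These 3 IFIT genes were thus dimmer in CD166+ cells, while IFIT5 had a log2 fold of -0.17. IFITM1, a membrane protein that restricts virus entry, had 197 in CD166+ and 396 in CD166- cells, 2.01-fold. These 4 were the only interferon-stimulated genes over 2-fold higher in CD166- cells, of 44 detected (0.408% of all genes in this direction). Over 2-fold higher in CD166+ cells were 2, BST2 and LGALS3BP (0.598% of all genes).

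The rest of the list had smaller differences, mostly toward CD166- cells. Of the 44 genes 33 had a negative log2 fold of CD166+ over CD166-, and the median was -0.20. Past 1.5-fold in this direction were 9 of 44 (2.62% of all genes), which adds the antiviral GTPases MX1, at 59.7 in CD166+ and 101 in CD166- cells, and MX2, at 162 and 269, the RNase L pathway relative OASL, at 24.3 (undetected) and 57.0, the immunoproteasome subunit PSMB9, at 88.2 and 133, and the ISG15 ligase HERC5, at 71.7 and 108. Toward CD166+ cells 3 of 44 were past 1.5-fold (2.54% of all genes), BST2, LGALS3BP and SP100, the last with a log2 fold of 0.70. The list's brightest genes differed less, with IFITM3 at 5065 in CD166+ and 6349 in CD166- cells and IFITM2 at 7417 and 9356. LGALS3BP, a secreted galectin-binding glycoprotein, had 331 and 134 and was 2.30-fold higher in CD166+ cells after the subtraction, against 2.47-fold before. HLA-B, a class I antigen, had 175 in CD166+ and 296 in CD166- cells, and 12 of 18 detected genes of class I and peptide loading had a negative log2 fold, with a median of -0.12. In SW1990 IFIT1, IFIT2, IFIT3 and IFITM1 did not have this direction, with log2 folds of 0.49, 0.026, 0.72 and 0.24, a difference between lines that was not tested.

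The promoters of 3 of these genes and of BST2, which had the opposite direction, are shown because each held matches to the interferon-stimulated response element, the site of the factor complex that interferon activates. IFIT2 had no promoter in the set used, so it was not searched. The sequences are from RefSeq (GRCh38.p14), run from 250 bases before to 50 bases after the start of the gene, are read 5′ to 3′ on the strand of the gene, and have matches to GAAANNGAAA or its other strand TTTCNNTTTC in capitals. IFIT1 lies at chr10:89392373-89392672 (+), IFIT3 at chr10:89327747-89328046 (+), IFITM1 at chr11:313790-314089 (+) and BST2 at chr19:17405581-17405880 (-).
IFIT1: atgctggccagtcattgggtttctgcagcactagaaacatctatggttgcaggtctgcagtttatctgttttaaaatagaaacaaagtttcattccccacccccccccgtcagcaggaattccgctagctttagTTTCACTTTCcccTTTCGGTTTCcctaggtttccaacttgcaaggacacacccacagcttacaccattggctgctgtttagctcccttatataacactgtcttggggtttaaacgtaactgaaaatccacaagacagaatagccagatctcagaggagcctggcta
IFIT3: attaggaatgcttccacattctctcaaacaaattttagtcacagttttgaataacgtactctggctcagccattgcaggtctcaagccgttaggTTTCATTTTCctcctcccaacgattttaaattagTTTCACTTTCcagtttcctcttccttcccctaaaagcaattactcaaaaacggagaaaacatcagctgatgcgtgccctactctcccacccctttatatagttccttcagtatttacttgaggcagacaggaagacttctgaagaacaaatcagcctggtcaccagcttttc
IFITM1: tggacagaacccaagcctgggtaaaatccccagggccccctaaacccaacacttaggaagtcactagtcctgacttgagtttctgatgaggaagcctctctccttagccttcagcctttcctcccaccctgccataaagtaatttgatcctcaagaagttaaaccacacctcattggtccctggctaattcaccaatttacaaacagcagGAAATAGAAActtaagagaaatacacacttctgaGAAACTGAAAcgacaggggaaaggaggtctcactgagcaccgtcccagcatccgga
BST2: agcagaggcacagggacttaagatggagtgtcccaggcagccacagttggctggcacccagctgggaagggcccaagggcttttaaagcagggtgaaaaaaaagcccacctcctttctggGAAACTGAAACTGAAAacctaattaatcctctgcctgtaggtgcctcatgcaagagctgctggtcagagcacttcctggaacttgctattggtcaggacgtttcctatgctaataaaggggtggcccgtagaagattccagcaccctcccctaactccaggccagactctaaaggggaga
Each of the 4 held 2 matches, overlapping in BST2. The first began 116 bases before the start in IFIT1, 156 in IFIT3, 40 in IFITM1 and 130 in BST2. Of 37 detected interferon-stimulated genes with a promoter in the table, 23 (62.2%) held the motif, against 3.57% of all 35116 promoters of the same length and 2.61% of the 8516 detected genes that have one. Of the 9 that were over 1.5-fold higher in CD166- cells only 6 had a promoter in the set. Among these it was 5 of 6 and among the other interferon-stimulated genes 18 of 31 (58.1%). Of the genes over 2-fold higher in CD166- cells 3 of 33 held it, IFIT1, IFIT3 and IFITM1, and of those over 2-fold higher in CD166+ cells 2 of 51, BST2 and LGALS3BP. The match is a description of these letters and does not show that a factor bound there.

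**Figure D4:**
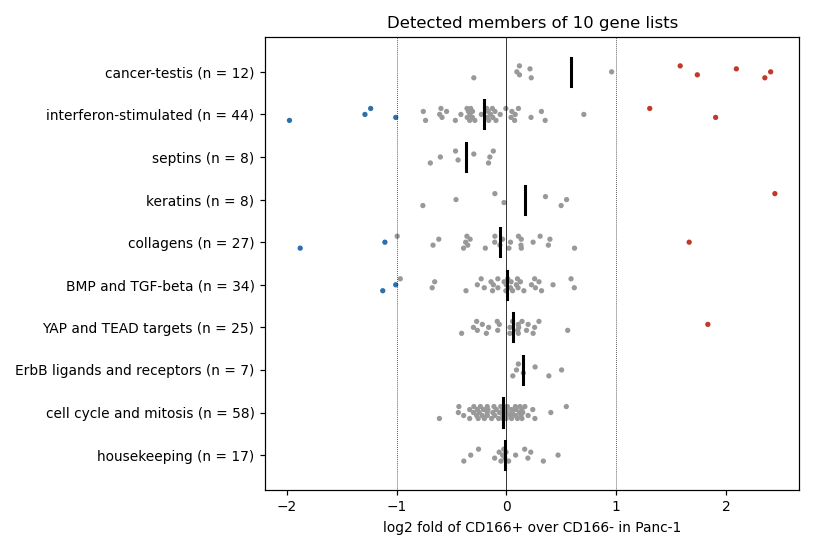
Log2 fold of CD166+ over CD166- in Panc-1 (x axis) of each detected member of 10 gene lists. Points are genes, red and blue where they are over 2-fold apart, and black bars are medians. The median was -0.20 for interferon-stimulated genes, -0.37 for septins and -0.033 for cell cycle genes, and 10 of the 12 cancer-testis genes were detected on the CD166+ array alone.

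Matrix genes higher in CD166- cells were SPARC, COL6A1 and CTHRC1. SPARC, a collagen-binding glycoprotein of the matrix, had signals of 216 (CD166+) and 794 (CD166-), 3.68-fold. COL6A1, which encodes 1 of the type VI collagen chains, had 87.3 and 188, 2.16-fold, and COL6A2, its partner chain, had 76.3 and 117, 1.53-fold. COL5A2, a chain of fibrillar type V collagen, had 1436 and 2864, just below 2-fold, while COL5A1, the partner chain, had 666 and 873. Of the 27 detected genes of the list of collagens and their processing, which includes SPARC, 1 was over 2-fold higher in CD166+ cells, COL13A1, and 2 in CD166- cells. The median log2 fold of the list was -0.060. CTHRC1, a secreted protein with collagen repeats, had 149 and 303, 2.03-fold, with 33.9 and 48.6 on its further probe.

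The BMP pathway signals through receptors to SMAD proteins, with inhibitory SMADs as feedback. BMP7, a ligand, had 66.2 in CD166+ and 145 in CD166- cells, 2.18-fold. SMAD6, an inhibitory SMAD, had 529.6 and 1066, 2.01-fold. BAMBI, a pseudoreceptor, was undetected in CD166+ cells at 36.1 and had 73.1 in CD166- cells, at least 1.96-fold, and the type II receptor BMPR2 had 173 and 272. BMP6, another ligand, lay the other way, at 813 in CD166+ and 530 in CD166- cells, 1.53-fold. Of 34 detected BMP and TGF-beta genes 17 had a positive and 17 a negative log2 fold, with a median of 0.0049, and 0 were over 2-fold higher in CD166+ cells. TGFB3, a TGF-beta ligand, had 110 in CD166+ and 175 in CD166- cells. FZD7, a Wnt receptor, had 213 and 466, 2.19-fold, but 114 and 125 on its further probe.

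Septins are GTPases that form filaments under the membrane. None of the 8 detected septins was past 2-fold and 2 were past 1.5-fold toward CD166- cells. All 8 had a negative log2 fold, between -0.69 and -0.12 with a median of -0.37, as had 51.5% of all genes, and the smallest of these were below the SD between probes of 0.226. SEPTIN5 had 259 in CD166+ and 418 in CD166- cells, 1.62-fold, whereas SEPTIN9, the brightest, differed by 1.09-fold. The actin-binding proteins SHROOM2, at 42.0 and 98.0, and SHROOM3, at 157 and 363, were 2.33-fold and 2.32-fold higher in CD166- cells, and the actin regulator CORO1A, at 40.9 and 115, was 2.81-fold higher. Of 17 detected tubulins 0 were past 2-fold, with TUBB2B at 2789 in CD166+ and 5162 in CD166- cells.

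Other genes higher in CD166- cells had various roles. SUSD2, a membrane protein with a sushi domain, had 653 in CD166+ and 1799 in CD166- cells, 2.75-fold. UPK1B, a uroplakin of the urothelium, had 74.4 and 207, 2.78-fold. NPW, the precursor of neuropeptide W, had 385 and 979.5, 2.54-fold. The alkaline phosphatases ALPG, at 53.8 and 156, and ALPL, at 130 and 262, were 2.89-fold and 2.02-fold higher in CD166- cells. EFHD1, a calcium-binding protein of mitochondria, had 393 in CD166+ and 1030 in CD166- cells, 2.62-fold. The chaperones HSPA2, at 65.3 and 178, and HSPA12A, at 83.7 and 168, were 2.72-fold and 2.00-fold higher in CD166- cells, with 36.3 and 70.3 on the further probe of HSPA2, and 2 of 10 detected genes of the neural list were too, the ubiquitin ligase TRIM9, at 53.5 and 151, and the GTPase RAB6B, at 88.4 and 193. Of TRIM9 a further probe gave 61.0 and 69.7. CDS1, an enzyme of phospholipid synthesis, had 57.4 in CD166+ and 143 in CD166- cells, 2.50-fold. PLCG2, a phospholipase C, had 40.6 and 92.9, 2.29-fold, and PLK2, a polo-like kinase, had 51.0 and 114, 2.23-fold.

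Among enzymes, ALDH1A3, which makes retinoic acid, had 835 in CD166+ and 1933 in CD166- cells, 2.31-fold, and 537 and 1133 on its further probe. It was the only one past 1.5-fold of 14 detected aldehyde dehydrogenases, a family used to mark stem-like cells, and their median log2 fold was -0.094. CTSH, the lysosomal protease cathepsin H, had 340 and 784.5, 2.31-fold, and 33.5 and 83.0 on its further probe. LIPA, the lysosomal acid lipase, had 1013 and 1952, just below 2-fold, and the other 22 of 24 detected lysosomal genes were not past 1.5-fold toward CD166- cells. MT1M, a metal-binding metallothionein, had 37.4 and 110, 2.93-fold, while the brightest metallothionein, MT2A, differed by 1.05-fold. Of 9 detected genes of the metallothionein list 1 was past 2-fold. Transcription factors higher in CD166- cells were DLX3, at 83.9 and 189, HMX2, at 106 and 239, and TFAP2C, at 90.1 and 186, each of them 2.07-fold to 2.26-fold, and the imprinted noncoding RNA H19 had 740.5 and 1526, 2.06-fold.

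Many pathways of growth and maintenance had no gene over 2-fold apart. Over all genes, 1.01% were past 2-fold and 5.17% past 1.5-fold in either direction. At these shares lists of this size hold few such genes or none, so the counts say little about the pathways. The 58 detected cell cycle and mitosis genes had a median log2 fold of -0.033, and E2F1, at 46.2 in CD166+ and 70.6 in CD166- cells, was the only one past 1.5-fold. The 34 detected respiratory chain genes, the 20 histones and the 17 housekeeping genes had none past 1.5-fold and medians of 0.021, 0.040 and -0.016. The 36 glycolysis and hypoxia genes, the 28 genes of sterol and fatty acid synthesis and the 30 genes of the ATF4 response had 0 past 2-fold in either direction. All 7 detected genes of the list of ErbB ligands and receptors had a positive log2 fold, from 0.06 to 0.50. The list includes ERRFI1, which is neither a ligand nor a receptor, at 0.091. Its median of 0.15 is below the SD between probes of 0.226, and 51.5% of all genes had a negative log2 fold. NRG1, a ligand, was at 180 in CD166+ and 127 in CD166- cells. Of 12 detected stem cell markers 1 was past 2-fold, ALDH1A3, and the median of that list was 0.0030.

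CDH2, TSPAN8, BST2, BMP7 and COL6A1, described above, are genes that the study also followed by RT-PCR or flow cytometry. Of the others in that group, CD44, a hyaluronan receptor, had 11324 in CD166+ and 10191 in CD166- cells, a log2 fold of 0.15. CD24, a mucin-like surface protein, had 3360 and 5144, 1.53-fold higher in CD166- cells. MMP2, a gelatinase, had 41.7 and 55.1, with a log2 fold of -0.40. CDH1, ZEB1, a repressor of E-cadherin, and PROM1, the gene of CD133, were undetected on both Panc-1 arrays.

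Neighbouring genes shared shifts in 6 stretches of chromosomes. Genes detected on both Panc-1 arrays were placed in the order of RefSeq (GRCh38.p14), and runs with a shared shift were found by a penalized fit that was chosen after the values were seen. The medians of whole chromosomes lay between -0.052 and 0.060 on the log2 scale. The running median of 31 genes had an SD of 0.038 to 0.085 on 20 chromosomes, chromosome 13 among them, against 0.15 on X, 0.21 on 17 and 0.23 on 18.

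On chromosome 17 the shift changed sign between the arms. From LIAT1 to MAP2K3, 158 of 181 genes (87.3%) had a higher signal in CD166- cells, and the median log2 fold was -0.20. Among them were PSMB6, a proteasome subunit, at 7290 in CD166+ and 9472 in CD166- cells, AURKB, a mitotic kinase, at 880 and 1046, and MAP2K4, a kinase of the JNK pathway, at 117 and 149. From WSB1 to DNAJC7, 93 of 112 genes (83.0%) had a higher signal in CD166+ cells, with a median of 0.38. Examples are SUZ12, a subunit of the Polycomb complex PRC2, at 2571 in CD166+ and 1930 in CD166- cells, LASP1, a LIM and actin-binding protein, at 3369 and 2048, and CDK12, a kinase of transcription, at 102 and 69.9. The receptor gene ERBB2 in the same stretch had 312 and 260, while KRT19, within it, had 8679 and 9339. The 52 and 27 further probes of these stretches, which the fit did not use, had medians of -0.20 and 0.34.

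Chromosome 18 also held a pair of stretches of opposite sign. From ROCK1P1 to KCTD1, 40 of 50 genes had a higher signal in CD166- cells, with a median of -0.22, among them TYMS, thymidylate synthase, at 1837 in CD166+ and 2481 in CD166- cells. From CDH2 to ADNP2, 61 of 71 genes (85.9%) had a higher signal in CD166+ cells, with a median of 0.24. This stretch begins with CDH2 and DSG2, described above, and holds RPL17, a ribosomal protein, at 7602 and 5654, and SMAD4, the shared SMAD of BMP and TGF-beta signaling, at 199 and 162. Further probes had medians of -0.32 (12 probes) and 0.25 (19 probes).

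On the X chromosome 59 of 67 genes from PLCXD1 to CASK (88.1%) had a higher signal in CD166- cells, with a median of -0.29, among them the deubiquitinase gene USP9X, at 263 in CD166+ and 397 in CD166- cells. At the end of chromosome 13, from STK24 to CHAMP1, 26 of 27 genes had a higher signal in CD166+ cells, with a median of 0.45, among them LAMP1, a lysosomal membrane protein, at 3579 and 2489, CUL4A, a ubiquitin ligase scaffold, at 757 and 534, and ERCC5, a DNA repair nuclease, at 184 and 101. Further probes had medians of -0.23 (26 probes) on X and 0.26 (7 probes) on chromosome 13. In SW1990 the same genes had medians between -0.066 and 0.023 in the first 5 stretches and of 0.18 in that of chromosome 13. Outside the 6 stretches, 48.8% of 9119 genes had a positive log2 fold, with a median of -0.0053. Of the 106 called genes 7 lay within a stretch, ASIC2, SLFN11, CDH2, DSG2, KDSR, SERPINB5 and SHROOM2, and 7 of 7 had its direction. All but SERPINB5 were used in the fit of the stretches, so this shared direction is in part set by the fit and supports nothing. The stretches held 6.60% of the called genes and 5.44% of all 10532 genes, and SERPINB5, 1 of the 29 genes above, fell below the lowest detected signal after the subtraction. The origin of these stretches was not tested.

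**Figure D5:**
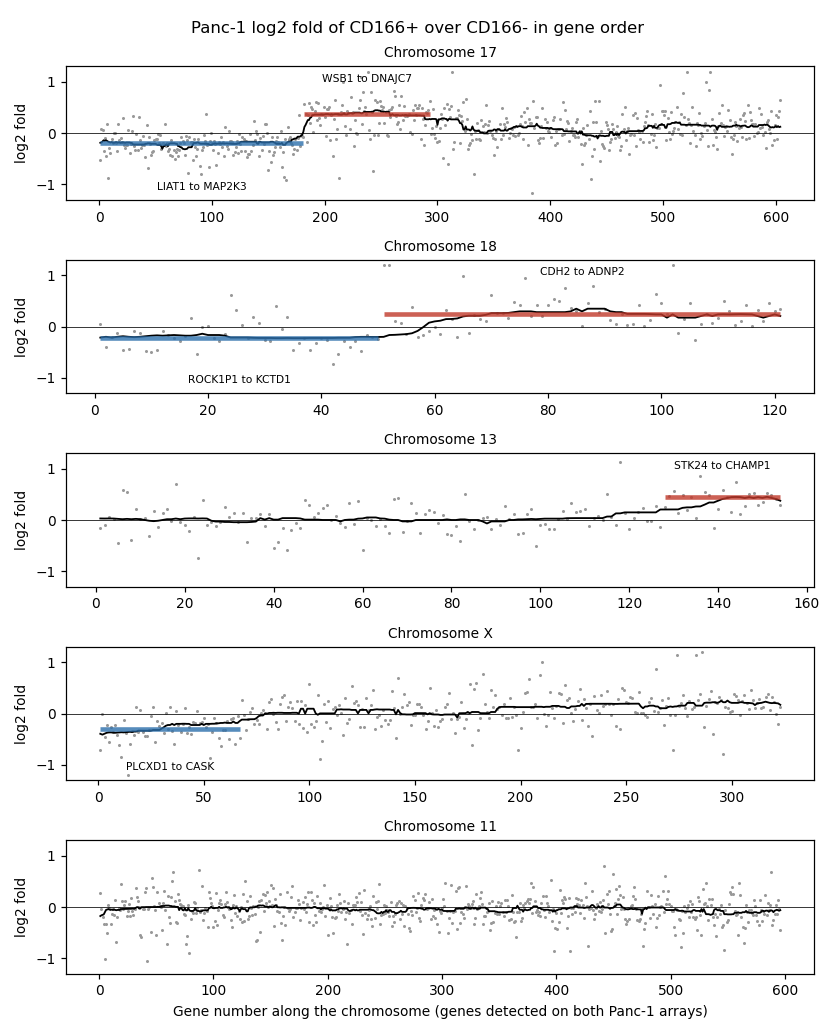
Log2 fold of CD166+ over CD166- (y axis, limited to 1.2 either way) of Panc-1 genes detected on both arrays, in their order along chromosomes 17, 18, 13, X and 11 (x axis). Grey points are genes, the black line is the running median of 31 genes, and red and blue bars are the medians of the stretches. The running median steps from below 0 to above 0 on chromosomes 17 and 18, and that of chromosome 11, which holds no stretch, stays near 0.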

How the data were processed

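Total RNA of Panc-1 and SW1990 cells, sorted into CD166+ and CD166- fractions, was hybridised to 4 HT-12 bead arrays, 1 a fraction. The authors deposited mean bead intensity per probe without normalization, with a detection p-value for each probe relative to the array's negative controls, as written by BeadStudio 3.2.3, and a second table of intensities that the values show to be scaled by 1 factor an array. The genome build of the probe annotation is not given in the sources used here. Of 47315 probes 30111 carried 1 gene, 8 several and 17196 none in the platform annotation. Symbols were updated through Entrez numbers to RefSeq (GRCh38.p14), where 27 numbers were not found.

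Background was corrected and the 4 arrays quantile normalized with neqc (limma 3.58.1, R 4.3.3, offset 16), which takes negative controls from the detection p-values. A gene was its annotated probe with the highest mean over the arrays. Genes were taken at a detection p under 0.01 on either Panc-1 array and called at over 2-fold. Shares of the SW1990 signal were computed on background-corrected intensities before quantile normalization. Runs along chromosomes were found by penalised least squares in Python 3.11.15 with numpy 2.4.6. Scripts were tested on simulated data. Genes named were the 5 markers ALCAM, ZNF185, ANKRD1, IFIT1 and SPARC, the genes the study measured by RT-PCR or flow cytometry, the 15 highest folds and 10 highest bounds in each direction and up to 5 members of each list past 1.5-fold; other called genes and genes in chromosome runs were named after their values were seen. The members and lists were chosen with earlier results of these data known. With 1 array a group, the number of arrays limits the precision, and no p-value was computed.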

Additional observations from a re-analysis of the deposited data

Results flagged for a closer look

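In Panc-1 and SW1990, 13 genes were over 2-fold apart between CD166+ and CD166- cells in opposite directions. The 7 genes below are 11.1% of the 63 higher in Panc-1 CD166+ cells, where 14.2% of all SW1990 genes lay toward CD166-, and the 6 genes are 13.95% of the 43, where 13.6% of all SW1990 genes lay toward CD166+, so the shares are near those of all genes. With 1 array a fraction, this difference was not tested. Higher in CD166+ cells of Panc-1 and in CD166- cells of SW1990 were 7 genes. ADIRF was 3.92-fold higher in CD166+ cells of Panc-1 and at least 89.6-fold lower there in SW1990, where CD166+ cells were undetected at 24.7. CAMK2N1 was 2.64-fold and 14.8-fold apart, PRDM8 2.15-fold and at least 12.1-fold, COL13A1 3.17-fold and at least 7.73-fold, CHST15 2.56-fold and 4.62-fold, CNTNAP1 2.48-fold and 4.01-fold, and HAS3 2.16-fold and at least 2.05-fold. The other 6 had the reverse pattern. In CD166+ cells TFAP2C was 2.07-fold lower in Panc-1 but at least 11.4-fold higher in SW1990, H19 2.06-fold and 8.69-fold, SHROOM3 2.32-fold and 5.79-fold, SMAD6 2.01-fold and 3.40-fold, HSPA2 2.72-fold and at least 2.28-fold, and the olfactory receptor OR2A42, a member of a family with near-identical copies, 2.13-fold and at least 2.06-fold. The lines shared a direction for 38 genes toward CD166+ cells, 60.3% of the Panc-1 and 2.60% of the SW1990 genes so called (13.6% of all SW1990 genes), and for 12 genes toward CD166- cells, 27.9% and 0.784%. Of the 38 genes 23 are among the 29 whose Panc-1 difference was at most 10% of the SW1990 CD166+ signal, and the other 15 are 44.1% of the remaining 34.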

How the results depend on the processing

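No paired analysis was possible because each fraction had 1 array. Of the 63 genes toward CD166+ and 43 toward CD166- cells, 33 and 9 were past 2-fold with no background correction, 40 and 17 with an offset of 50, and 27 and 9 in the scaled table of the authors, all of them among the 63 and 43. Detection on both arrays gave 40 and 42, thresholds of 1.5-fold 268 and 276, and 3-fold 25 and 3. With the median SW1990 CD166+ share subtracted the counts were 43 and 47, and with its upper quartile 43 and 53. The share of CD166+ among called genes was 59.4%, 78.6% with no background correction, 70.2% with an offset of 50, 75% in the scaled table, 48.8% with detection on both arrays, and 47.8% and 44.8% with the median or upper quartile subtracted. The other 7 settings gave 57 to 84 and 40 to 49 genes. The log2 folds of these genes turned with the median subtracted: TENT5A to -0.45, IGFBP6 to -0.17, TRIP6 to -0.10, S100P to -0.073, CPS1 to -0.037 and C4BPB to -0.027. With the upper quartile they were -0.45, -0.17, -0.19, -0.071, -0.37 and -0.50, and MFAP5 turned to -0.58 and TSPAN8 to -0.22. These genes fell with the signal taken off. After a subtraction the Panc-1 CD166+ signal was set no lower than 37.4, so these negative values can be limits rather than measured folds. Those of TENT5A, IGFBP6 and S100P were nearly equal in both subtractions. With the upper quartile, the values of all 8 genes lay close to those that 37.4 gives against their CD166- signals. These 8 values are thus limits and not measured folds. Of 795 comparisons of 64 named called genes with other settings 574 moved by less than the SD between probes, 207 moved more in the same direction and 14 turned. Of 598 list medians 10 moved, of cancer-testis genes 7, and of 253 chromosome medians 0. The median of all genes moved to -0.059 at most. ALCAM had log2 folds of 1.52 to 2.40, ZNF185 2.40 to 3.05, ANKRD1 1.15 to 1.90, IFIT1 -1.98 to -1.25 and SPARC -1.88 to -1.65. BMP7 and COL6A1 were under 2-fold with no background correction and in the scaled table. The 6 chromosome stretches were found at the penalty used, 8 at a lower and 5 at a higher one, without that of chromosome 13. Dim genes are limited by background, and of the 2633 dimmest genes 23 and 12 were among the 63 and 43, against 3 and 4 of the 2633 brightest.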
